A study of Mus musculus with 12 samples.

Results

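The genes described here are those of the interferon response and of antigen presentation. They were chosen by a rule on gene symbols, with earlier results of these data known. The families were interferons and their receptors, interferon regulatory factors, Stat factors, Toll-like receptors, interferon-induced effectors (Ifi, Ifit, Ifitm, Oas, Mx, Gbp and others) and the major histocompatibility complex (H2 genes, B2m and the peptide transporter). Ifitm1 was set aside by that rule. The rule found 55 of the 9984 genes with a value. By role, 7 were interferons or their receptors, 2 pattern sensors, 4 transcription factors, 11 antiviral effectors, 10 p200 or other Ifi genes, 1 an interferon-inducible GTPase, 2 interferon-inducible membrane proteins, 14 MHC class I or peptide loading genes, 3 MHC class II genes and 1 an IRF2-binding protein.

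The study compared blood stem and progenitor cells of mice with intact and reduced Erg, an ETS family transcription factor, with 3 arrays in each of 4 groups. All mice were male C57Bl/6, bred to that strain for at least 6 generations, and bone marrow was enriched for c-Kit before sorting. Haematopoietic stem cells (HSCs) were Lineage-, Sca-1+, c-kit+, CD150+ and CD48- and came from Erg +/+ mice and from Erg +/- mice, in which exon 11, which encodes the DNA-binding domain, had been deleted on 1 allele by a general Cre deleter. Multipotent progenitors (MPPs) were Lineage-, Sca-1+, c-kit+ and CD150- according to the sorting field, whereas the source field repeats the HSC gate. The control MPPs were from floxed mice lacking Cre (Erg fl/fl), and the Erg -/- MPPs from Erg fl/fl mice that also carried Mx1-Cre. Both MPP groups had been given 5 intraperitoneal injections, at intervals of 2 days, of 200 µl pIpC at 1.5 mg/ml. Sorting followed 2 weeks after injections began. The HSC labels name no pIpC. Mx1-Cre is driven by an interferon-inducible promoter, and the labels do not say which fraction of MPPs had recombined. No label says that the arrays of a group are from different animals, so the p-values cover the spread among these arrays, possibly technical spread only. Erg itself is not analysed here, so the labels could not be checked against it.

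Interferons are secreted alarm proteins. Type I interferons (such as interferon beta, encoded by Ifnb1) and type III interferons (lambda) signal through their receptors and Jak kinases to genes that carry the interferon-stimulated response element. Interferon gamma acts on genes that carry the gamma-activated site, and it raises Irf1 and the genes that load peptides onto MHC molecules. pIpC is a mimic of viral double-stranded RNA that makes cells produce type I interferon, and interferon drives quiescent HSCs into cycle. So an interferon-inducing agent was part of how both MPP groups were made.

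The values are log2 RMA values of whole-transcript gene arrays. They differ by 1 for a 2-fold difference in signal, and dim genes have compressed folds. Of the 55 genes, 30 had a mean below the median over all genes and 19 (34.5%) lay in the lowest 25% of genes, where signal approaches background. Array medians ran from 5.41 to 5.54, and arrays of one group correlated at 0.953 to 0.974. Of 10 listed HSC-associated genes 3 had a value (Mmrn1, Tgm2 and Nupr1), and these averaged 8.72 to 9.23 on HSC arrays and 5.30 to 5.90 on MPP arrays. The selection of the table described next kept them through that very difference, so they are no independent check of the sort. In RNA from whole sorted populations, fewer cells of a type and less RNA per cell cannot be told apart. For several genes below, the arrays of 2 groups are said not to overlap. With 3 arrays per group this can easily arise, and the share of all genes for which it holds was not counted. Such statements therefore have no baseline and are description only.

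A property of the value table bears on every comparison below. When the model was fitted to all 18719 probe sets, the comparison of Erg -/- MPPs with Erg +/- HSCs had 18 probe sets with p up to 1e-05, 0 between 1e-05 and 0.05, and 2786 between 0.05 and 0.1. Between the control groups, 3140 probe sets had p between 1e-05 and 0.05. The table used here therefore lacks the probe sets that differed moderately between the Erg-reduced groups, and the sources used here do not name the step that left them out. The Erg-reduced population difference equals the control population difference plus the MPP genotype difference minus the HSC genotype difference. With that sum held small by selection, a gene higher in control MPPs must tend to have a less positive difference in MPPs than in HSCs. For this reason the comparison of Erg-reduced populations, and the average of both population comparisons, are given as values and not read as tests, and each share of called genes describes only the genes in the table.

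**Figure D1:**
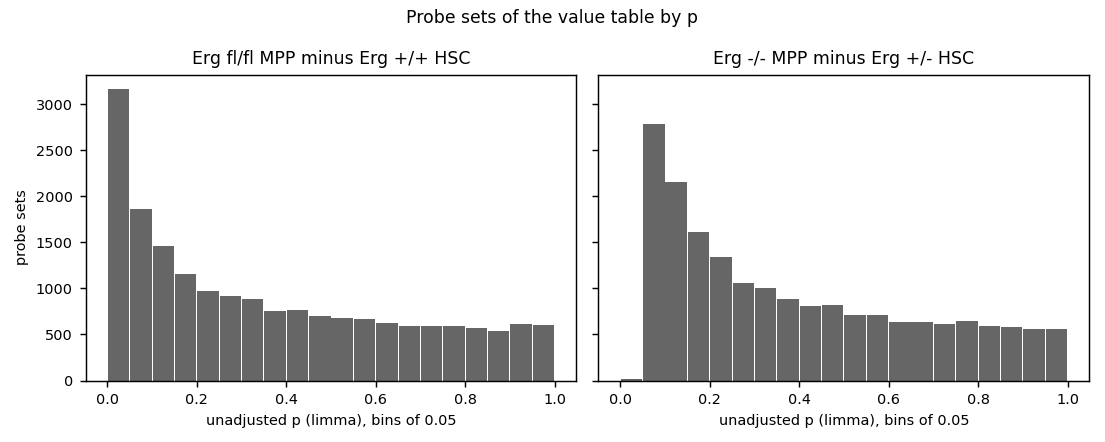
Number of probe sets (vertical axis) by unadjusted limma p in bins of 0.05 (horizontal axis), for MPPs against HSCs in the control groups (left) and in the Erg-reduced groups (right). The lowest bin holds 3163 probe sets on the left and 18 on the right, next to 2786 in the second bin on the right.

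RefSeq promoter sequences (GRCm38.p6, 250 bases before to 50 after each start) were matched for 47 of the 55 genes, with 55 promoters. The interferon-stimulated response element, searched on both strands as GAAA, any 2 bases and GAAA, was present in 13 of these promoters (23.6%), against 2.99% of the 9504 promoters of all measured genes and 3.44% of all 32851 in the table. The gamma-activated site, searched as TTCNNNGAA, was present in 7 (12.7%), against 7.30% of promoters of measured genes. The composite ETS-IRF site (GGAA, any 2 bases and GAAA) and the ETS consensus CCGGAAGT were in 0 of the 55, against 2.60% and 6.38% of promoters of measured genes. A match is a run of letters and not a measured binding site, and the genes were chosen by name from families known for this element.

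The windows below belong to the genes whose values are given further on, with 25 bases on either side of the element. Capitals mark the element: GAAA on either side of 2 bases, or TTTC on either side of 2 bases where it lies on the other strand. In Irf8 and Irf1 the capitals mark the gamma-activated site. Ifit3 (chr19:34583348-34583441, plus strand) carried the element at 2 places, Oas1a (chr5:120907505-120907570, minus strand) at 2 overlapping places, and Irf8 (chr8:120736162-120736238, plus strand) the gamma-activated site at 2 places. Rsad2 lies at chr12:26456538-26456597 (minus), Ifi203 at chr1:173942493-173942552 (minus), Ifi206 at chr1:173491324-173491383 (minus), Gbp2b at chr3:142594685-142594744 (plus), B2m at chr2:122147523-122147582 (plus) and Irf1 at chr11:53769899-53769957 (plus).
Ifit3: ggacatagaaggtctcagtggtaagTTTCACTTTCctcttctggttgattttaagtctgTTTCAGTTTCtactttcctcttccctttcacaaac
Oas1a: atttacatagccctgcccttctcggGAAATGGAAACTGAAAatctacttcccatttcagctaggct
Rsad2: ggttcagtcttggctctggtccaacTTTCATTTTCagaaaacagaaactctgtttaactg
Ifi203: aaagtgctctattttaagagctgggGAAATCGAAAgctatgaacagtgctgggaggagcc
Ifi206: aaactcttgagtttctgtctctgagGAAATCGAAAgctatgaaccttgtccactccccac
Gbp2b: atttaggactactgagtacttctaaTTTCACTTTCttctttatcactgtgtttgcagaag
B2m: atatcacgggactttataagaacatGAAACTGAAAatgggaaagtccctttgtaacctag
Irf8: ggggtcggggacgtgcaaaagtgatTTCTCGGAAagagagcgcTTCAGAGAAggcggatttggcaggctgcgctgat
Irf1: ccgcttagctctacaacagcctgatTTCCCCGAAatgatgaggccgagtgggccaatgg
The Ifit3 window is identical over all 94 bases to that of its neighbour Ifit3b, and the promoters of Ifi206 and Ifi208 share a run of 182 bases. Probes for such close copies may pick up each other's RNA, so values within the Ifit3, Oas1, Ifi20x and H2 families are uncertain as to the copy.

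No gene of the 55 passed the threshold for a difference with Erg reduction. In HSCs (Erg +/- minus Erg +/+), 0 of 55 had a limma adjusted p under 0.05, against 0.02% of all genes. At an unadjusted p under 0.05, 2 were higher (Oasl1 and Ifi206, 3.64%, against 2.73% of all genes) and 3 lower (Irf1, H2-Eb1 and Ifi30, 5.45%, against 3.59%). In MPPs (Erg -/- minus Erg fl/fl), 0 of 55 were called, against 0.0801% of all genes, with 2 higher (Ifit3 and Ifi27l2a, against 1.21% of all genes) and 3 lower (Ifi203, Irf8 and H2-Eb1, against 3.58%) at an unadjusted p under 0.05. The median difference of the 55 genes was 0.00 in HSCs and -0.03 in MPPs, beside 0.02 and -0.00 over all genes. For the difference between the MPP and HSC genotype effects, 0 were called (0.02% of all genes), and 0 were higher (1.43% of all genes) and 4 lower (Irf8, Ifnl2, Oasl1 and Ifi209, against 2.44% of all genes) at an unadjusted p under 0.05.

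Between the control populations (Erg fl/fl MPP minus Erg +/+ HSC), 1 of the 55 was called, Irf8, which was higher in MPPs, against 1.28% of all genes. At an unadjusted p under 0.05, 11 were higher in MPPs (20.0%, against 14.4% of all genes) and 7 lower (12.7%, against 7.91%). Antiviral effectors made up 4 of the 7 lower genes (Ifit3, Oas1a, Rsad2 and Mx2), and none of these passed adjustment. The groups compared differ in population, in pIpC and in the floxed allele, and these cannot be told apart. The median of the 55 was 0.18, beside 0.12 over all genes. After repeated quantile normalisation these medians were 0.005 and 0.03, so the general shift toward MPPs depended on scaling. Between the Erg-reduced populations 0 of 55 were called (0.12% of all genes), and in the average of both population comparisons 0 (0.30% of all genes), with the medians at 0.11 and 0.16 beside 0.10 and 0.11 over all genes.

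**Figure D2:**
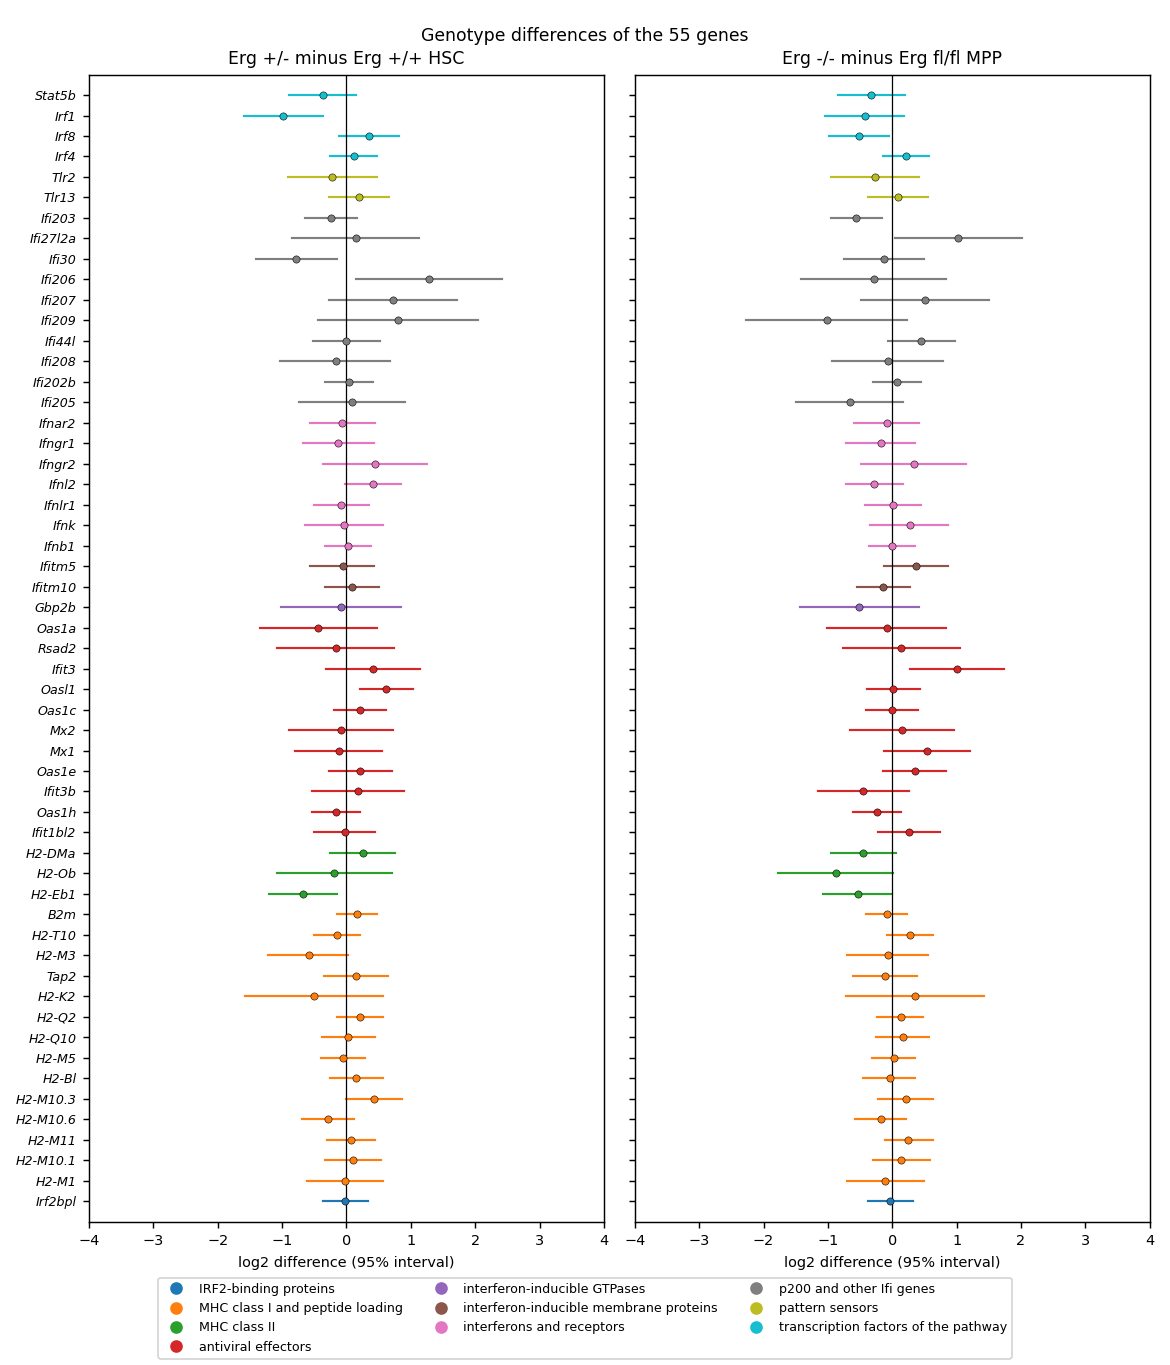
Log2 difference (horizontal axis) with its 95% interval from limma for each of the 55 genes (rows, coloured by role): Erg +/- minus Erg +/+ HSC on the left and Erg -/- minus Erg fl/fl MPP on the right. Most intervals cross 0, and 0 of 55 genes had an adjusted p under 0.05 in either panel.

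Among the interferons and receptors, 0 of 7 were called in any comparison. Ifnl2, a type III interferon, read 6.26, 6.97 and 6.91 on Erg +/+ HSC arrays, 7.32, 6.90 and 7.13 on Erg +/- HSC arrays, 7.35, 7.54 and 7.61 on Erg fl/fl MPP arrays and 7.30, 7.22 and 7.13 on Erg -/- MPP arrays. All control MPP arrays lay above all control HSC arrays (log2 difference 0.79, SE 0.202, limma adjusted p = 0.077), while a probe set shared by Ifnl3 and Ifnl2 read 6.41 ± 0.132 (SD, n = 3) in Erg +/+ HSCs and 6.99 ± 0.196 in Erg fl/fl MPPs. The Ifnl2 genotype difference in MPPs minus that in HSCs was -0.69, SE 0.286, limma adjusted p = 1. The Ifnl2 means of the Erg-reduced groups were close, at 7.12 in HSCs and 7.22 in MPPs. Through the sum given above, -0.69 and 0.79 are therefore nearly the same quantity with opposite sign, and not separate results. Ifnb1, the gene of interferon beta, stayed between 3.61 and 4.19 on all 12 arrays, in the lowest 25% of genes. Ifnar2, a chain of the type I receptor, had group means between 8.99 and 9.15, and Ifngr1, the ligand-binding chain of the interferon gamma receptor, between 8.17 and 8.39. Ifngr2, its signalling chain, spread over 6.96 to 8.09 within the Erg +/+ HSC arrays alone. Ifnlr1 (a lambda receptor chain) and Ifnk (interferon kappa) differed by at most 0.27 between genotypes in size.

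The pattern sensors were Tlr2, which recognises bacterial lipopeptides, and Tlr13, which recognises bacterial ribosomal RNA. Tlr2 averaged 7.22 ± 0.639 (SD, n = 3) in Erg +/+ HSCs, 7.0 ± 0.196 in Erg +/- HSCs, 6.73 ± 0.365 in Erg fl/fl MPPs and 6.45 ± 0.445 in Erg -/- MPPs, with overlapping arrays. Tlr13 read 3.47, 3.51 and 3.5 on Erg +/+ HSC arrays and 3.81, 3.74 and 4.43 on Erg fl/fl MPP arrays (log2 difference 0.50, SE 0.213, limma adjusted p = 0.201). The control arrays of Tlr13 did not overlap, but at values in the lowest 25% of genes.

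The transcription factors gave the only call. Irf8, which directs monocyte, dendritic cell and B cell development, read 5.18, 5.72 and 5.96 on Erg +/+ HSC arrays and 6.81, 6.48 and 6.70 on Erg fl/fl MPP arrays, a 2.07-fold higher signal in control MPPs (log2 difference 1.05, SE 0.215, limma adjusted p = 0.0364, 95% interval 0.58 to 1.51). The Erg +/- HSC arrays read 6.10, 5.65 and 6.16 and the Erg -/- MPP arrays 6.07, 6.13 and 6.24. Within MPPs the 2 genotypes did not overlap, with Erg -/- the lower (log2 difference -0.52, SE 0.215, limma adjusted p = 0.998), and in HSCs Erg +/- read above Erg +/+ on average (log2 difference 0.35, SE 0.215, limma adjusted p = 0.885). The genotype effects differed by -0.87, SE 0.304, limma adjusted p = 1. For Irf8 the Erg-reduced populations differed by only 0.17. Through the sum given above, -0.87 and the control population difference of 1.05 are therefore nearly the same quantity with opposite sign. They do not stand for separate results. The Irf8 call was lost when any 1 control array other than Erg +/+ HSC replicate 3 was left out, with limma adjusted p from 0.0588 to 0.113, and the difference ran from 0.83 to 1.22 over single arrays left out. It was also lost with median centring (adjusted p = 0.0639), a limma fit of only the arrays compared (0.0864) and a fit over all probe sets (0.109). Markers of B cells also read higher on the Erg fl/fl MPP arrays, with 6 of 10 listed genes measured. Their mean was 4.91 to 5.52 on Erg +/+ HSC arrays, 6.5 to 7.0 on Erg fl/fl MPP arrays and 5.05 to 5.40 on Erg -/- MPP arrays. Of the 6, 3 were called higher in control MPPs and 2 lower in Erg -/- MPPs. The selection of the table favoured genes with such a rise and fall, so these markers are no independent comparison for Irf8. Of the dendritic cell and macrophage genes, 7 of 12 were measured, with 5 positive and 2 negative differences between the control populations, and 1 of the 7, Flt3, was called higher in control MPPs. Between genotypes Flt3 had the opposite sign to Irf8, at 0.52 in MPPs and -1.33 in HSCs. Flt3 was higher in MPPs than in HSCs in the control groups (2.57) and in the Erg-reduced groups (4.42). It thus followed the population and cannot be read here as a marker of dendritic cells. The selection kept Flt3 through its large Erg-reduced difference, so it is no independent comparison either. Among the markers of further cell types, 0 of 8 plasmacytoid dendritic cell markers and 0 of 9 neutrophil markers were measured. Their part in the Irf8 result was not tested.

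Irf1 carries interferon gamma signals to MHC class I genes. It read 7.50, 7.72 and 7.16 on Erg +/+ HSC arrays and 6.15, 7.02 and 6.28 on Erg +/- HSC arrays, which did not overlap, and the difference did not pass adjustment (log2 difference -0.98, SE 0.282, limma adjusted p = 0.559). On Erg fl/fl MPP arrays it read 7.07, 6.72 and 6.45 and on Erg -/- MPP arrays 6.56, 5.82 and 6.56, which overlapped (log2 difference -0.43, SE 0.282, limma adjusted p = 0.998). Markers of endothelial and stromal cells also read lower in Erg +/- HSCs: the mean of 5 measured genes of 9 listed was 6.43 to 7.15 on Erg +/+ and 5.58 to 5.79 on Erg +/- HSC arrays, with Sparc called (-2.08, limma adjusted p = 0.0401). Their part in the Irf1 values was not tested. Stat5b, which carries cytokine signals in blood cells, read 7.29, 7.65 and 7.36 on Erg +/+ HSC arrays, 7.31, 7.05 and 6.83 on Erg +/- HSC arrays, 7.30, 6.70 and 6.99 on Erg fl/fl MPP arrays and 6.60, 7.14 and 6.25 on Erg -/- MPP arrays, and the genotypes overlapped in both populations. Irf4, a factor of lymphocytes, stayed between 3.79 and 4.37. Irf2bpl, related to the IRF2-binding proteins, differed by 0.03 or less between genotypes in size.

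**Figure D3:**
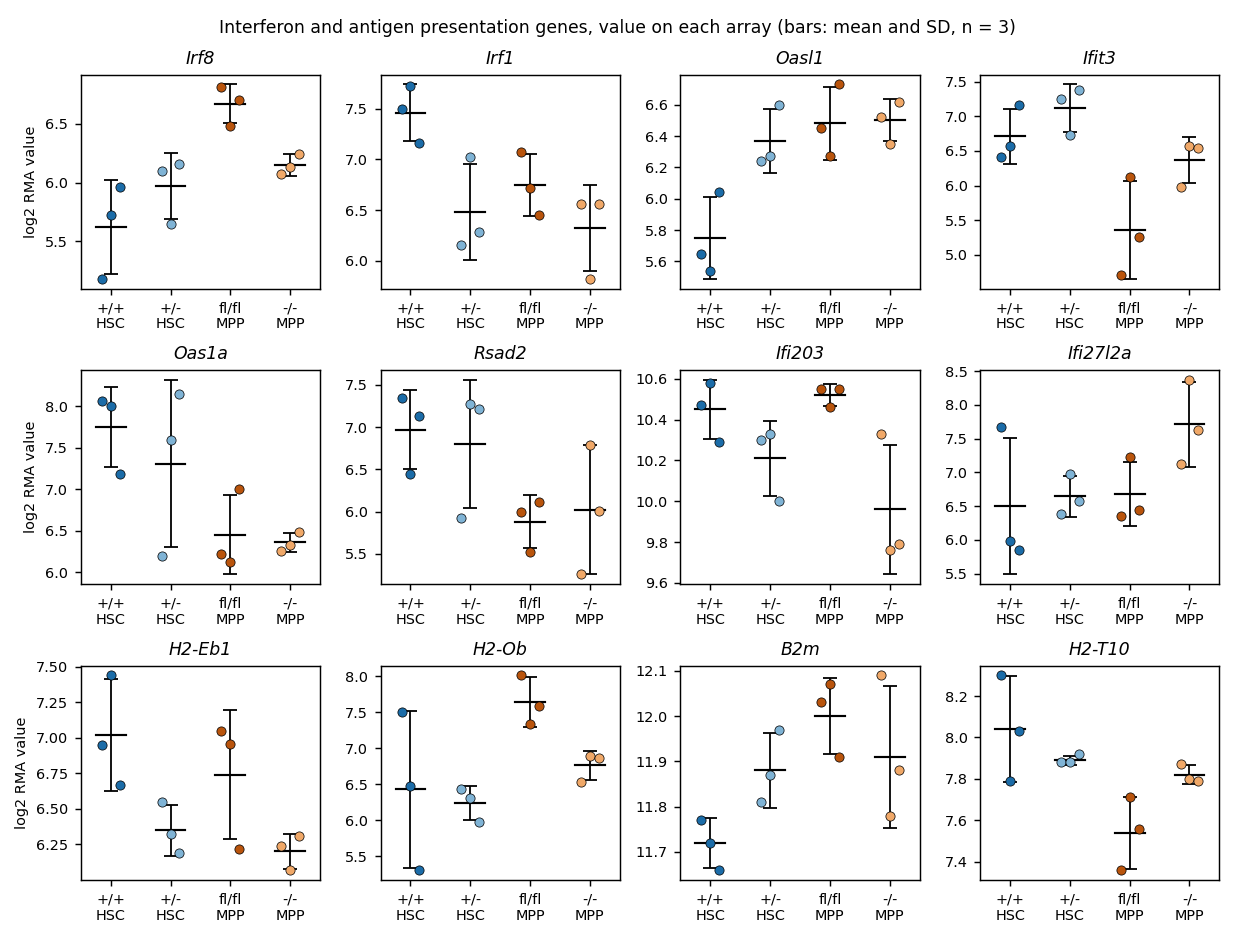
Log2 RMA value (vertical axes, each on its own scale) of 12 genes on each of the 12 arrays, by group (horizontal axis); points are arrays, and the line and bars are the mean and SD of 3 arrays. For Irf8, the Erg fl/fl MPP arrays at 6.48 to 6.81 lie above all other arrays, and for Ifit3 they lie at 4.71 to 6.12, below all HSC arrays.

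Antiviral effectors pointed both ways. Ifit3, which holds back viral RNA and protein synthesis, read 6.41, 6.57 and 7.16 on Erg +/+ HSC arrays and 4.71, 6.12 and 5.26 on Erg fl/fl MPP arrays, with no overlap (log2 difference -1.35, SE 0.335, limma adjusted p = 0.0729). On Erg +/- HSC arrays it read 7.25, 6.73 and 7.38, and on Erg -/- MPP arrays 5.98, 6.57 and 6.54, so that 2 of the 3 Erg -/- arrays lay above every Erg fl/fl array (log2 difference 1.00, SE 0.335, limma adjusted p = 0.946). Without Erg fl/fl MPP replicate 2, the Ifit3 difference between control populations was -1.73 with a limma adjusted p of 0.0367. In that comparison no other alternative gave a call of Ifit3. Its neighbour Ifit3b, with the identical promoter window, had group means of 3.44, 3.62, 3.33 and 2.88 in the order Erg +/+ HSC, Erg +/- HSC, Erg fl/fl MPP and Erg -/- MPP, with a difference between MPP genotypes of -0.45 where Ifit3 had 1.00.

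Oas1a, which makes the 2-5A messenger that activates RNase L, read 8.07, 8.0 and 7.19 on Erg +/+ HSC arrays and 6.22, 6.12 and 7.0 on Erg fl/fl MPP arrays (log2 difference -1.30, SE 0.422, limma adjusted p = 0.121). Its Erg +/- HSC arrays spread widely, at 6.19, 7.59 and 8.15, while the Erg -/- MPP arrays read 6.26, 6.33 and 6.48. Rsad2, the antiviral enzyme viperin, read 7.34, 6.44 and 7.13 on Erg +/+ HSC arrays and 6.00, 5.52 and 6.11 on Erg fl/fl MPP arrays, without overlap (log2 difference -1.10, SE 0.42, limma adjusted p = 0.163). Its Erg -/- MPP arrays covered 5.26, 6.79 and 6.01. Mx2, a dynamin-like GTPase, had group means of 5.53, 5.44, 4.55 and 4.70, and its control arrays overlapped. Over all 11 effectors, 7 differences between the control populations were negative and 4 positive. At an unadjusted limma p under 0.05, 4 were lower and 1 higher, and 0 were called. Over all genes, 62.4% of differences were positive, and 7.91% were lower and 14.4% higher at that threshold. Endothelial and stromal markers read lower in the same comparison: 4 of 5 measured genes had negative differences, the array means were 6.43 to 7.15 in Erg +/+ HSCs and 5.93 to 6.27 in Erg fl/fl MPPs, and Sparc was called (-1.40, limma adjusted p = 0.0351). Their part in the values of the effectors was not tested.

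Oasl1, a relative of the Oas enzymes, had values on the other side. It read 5.65, 5.54 and 6.04 on Erg +/+ HSC arrays, 6.24, 6.27 and 6.60 on Erg +/- HSC arrays, 6.45, 6.27 and 6.73 on Erg fl/fl MPP arrays and 6.52, 6.35 and 6.62 on Erg -/- MPP arrays. The Erg +/+ HSC arrays lay below all other arrays. Its difference between HSC genotypes (log2 difference 0.62, SE 0.19, limma adjusted p = 0.559) and that between the control populations (log2 difference 0.74, SE 0.19, limma adjusted p = 0.0785) did not pass adjustment. Both Oasl1 differences rest on the same 3 Erg +/+ HSC arrays, so they are not separate results. Mx1, whose promoter drives the Cre of the Erg -/- group, had a mean of 4.16 ± 0.204 (SD, n = 3) in Erg fl/fl MPPs and 4.70 ± 0.233 in Erg -/- MPPs, without overlap. Its HSC means were 4.72 and 4.59. Over the 12 arrays Mx1 averaged 4.54, in the lowest 25% of genes, where signal approaches background. Its difference between MPP genotypes did not reach an unadjusted limma p under 0.05. Of the other 5 effectors, Oas1c had group means from 5.46 to 5.68, Oas1e from 3.25 to 3.83, Oas1h from 3.13 to 3.41, Ifit1bl2 from 3.02 to 3.37 and Ifit3b as above.

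Among the p200 and other Ifi genes, 0 of 10 were called in any comparison. Ifi203, of the p200 family of DNA sensors and nuclear proteins, read 10.55, 10.46 and 10.55 on Erg fl/fl MPP arrays and 10.33, 9.76 and 9.79 on Erg -/- MPP arrays, with every Erg -/- array below every Erg fl/fl array (log2 difference -0.56, SE 0.184, limma adjusted p = 0.946). In HSCs it averaged 10.45 ± 0.145 (SD, n = 3) with Erg +/+ and 10.21 ± 0.184 with Erg +/-, and the arrays overlapped. Ifi27l2a, an interferon-induced membrane protein gene, read 6.36, 7.23 and 6.45 on Erg fl/fl MPP arrays and 7.13, 8.37 and 7.63 on Erg -/- MPP arrays, with 1 overlapping array (log2 difference 1.02, SE 0.452, limma adjusted p = 0.998). Its Erg +/+ HSC arrays, at 7.67, 5.99 and 5.85, contained both low values and a high one. So of the interferon-induced genes at an unadjusted p under 0.05 in MPPs, Ifit3 and Ifi27l2a read higher and Ifi203 lower in Erg -/- cells, beside lower values of Irf8 and H2-Eb1.

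The p200 relatives Ifi206 and Ifi209 spread widely between arrays of one group. Ifi206 read 4.28, 5.12 and 3.43 on Erg +/+ HSC arrays, 5.48, 6.74 and 4.43 on Erg +/- HSC arrays and 6.19, 5.93 and 5.87 on Erg fl/fl MPP arrays. Ifi209 read 3.67, 3.33 and 2.86 on Erg +/+ HSC arrays and 7.01, 4.73 and 4.43 on Erg fl/fl MPP arrays, where replicate 1 lay far above the others (log2 difference 2.10, SE 0.577, limma adjusted p = 0.0926). Its Erg -/- MPP arrays read 5.06, 4.37 and 3.68. Ifi30, a lysosomal thiol reductase that prepares antigens for MHC class II, read 5.91, 5.22 and 6.60 on Erg +/+ HSC arrays and 5.16, 5.42 and 4.83 on Erg +/- HSC arrays (log2 difference -0.78, SE 0.288, limma adjusted p = 0.745). Of the remaining members, Ifi207 reached 6.54 on a single Erg +/- HSC array against 4.22 and 4.63 on the others. Ifi208 averaged 3.04 to 3.84, Ifi202b 2.81 to 3.17 and Ifi205 2.61 to 3.27 by group. Ifi44l, an interferon-induced gene, read 3.67, 3.90 and 3.98 on Erg fl/fl MPP arrays and 3.87, 4.17 and 4.86 on Erg -/- MPP arrays (log2 difference 0.45, SE 0.241, limma adjusted p = 0.998), with HSC means of 3.93 in both genotypes.

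Gbp2b, a guanylate-binding protein that attacks pathogen vacuoles, read 4.39, 4.71 and 4.49 on Erg +/+ HSC arrays and 6.25, 6.69 and 4.51 on Erg fl/fl MPP arrays, of which 1 fell among the HSC arrays (log2 difference 1.29, SE 0.428, limma adjusted p = 0.128). Without that array, Erg fl/fl MPP replicate 3, the difference was 1.94 with a limma adjusted p of 0.0051. No other alternative gave a call of Gbp2b in this comparison. The Erg -/- MPP arrays read 5.28, 4.91 and 5.71. Ifitm10 read 5.67, 5.81 and 5.49 on Erg +/+ HSC arrays and 6.11, 6.20 and 6.51 on Erg fl/fl MPP arrays, without overlap (log2 difference 0.61, SE 0.191, limma adjusted p = 0.112), and averaged 5.74 in Erg +/- HSCs and 6.13 in Erg -/- MPPs. Ifitm5, a bone-restricted member, had group means of 6.36, 6.30, 6.30 and 6.67.

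MHC class I genes, which show peptides from inside the cell, had 0 of 14 called by genotype in either population: 8 of 14 differences were positive in HSCs and 8 of 14 in MPPs, and they ran from -0.59 to 0.43 and from -0.18 to 0.35. B2m, the shared light chain of class I molecules, read 11.77, 11.72 and 11.66 on Erg +/+ HSC arrays, 11.81, 11.87 and 11.97 on Erg +/- HSC arrays, 12.03, 12.07 and 11.91 on Erg fl/fl MPP arrays and 12.09, 11.78 and 11.88 on Erg -/- MPP arrays. The 4 group means of B2m were within 0.29 of each other, and the genotypes overlapped in MPPs but not in HSCs, where they differed by 0.16. Tap2, a subunit of the peptide transporter, had group means from 7.17 to 7.55. H2-K1 and H2-D1, the classical class I heavy chain genes, were not among the 14. H2-M1, H2-M10.1, H2-M10.6 and H2-M11 averaged only 3.49 to 3.53 over the 12 arrays, in the lowest 25% of genes. The counts above thus describe the genes listed and not class I presentation as a whole. The other genes of this arm on a separate list of pathway genes were likewise not called: Psmb9, an immunoproteasome subunit, had group means of 10.89, 10.92, 10.92 and 10.67, and Psme1, of its activator, 10.28, 10.32, 10.45 and 10.35.

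Between the control populations the class I genes split. H2-K2, a class I gene of the H2-K region, read 7.37, 7.36 and 5.49 on Erg +/+ HSC arrays and 5.45, 5.03 and 4.60 on Erg fl/fl MPP arrays (log2 difference -1.71, SE 0.496, limma adjusted p = 0.1). Without Erg +/+ HSC replicate 3 the difference was -2.34 with a limma adjusted p of 0.0223, and no other alternative gave a call in this comparison. H2-T10, a ligand of gamma-delta T cells, read 8.30, 7.79 and 8.03 and 7.36, 7.71 and 7.56 on the same arrays (log2 difference -0.50, SE 0.165, limma adjusted p = 0.127). A probe set shared by H2-T9, H2-T22 and H2-T10 went the other way, from 8.65 ± 0.685 (SD, n = 3) to 9.77 ± 0.598, so the sign for H2-T10 depended on the probe set. H2-M10.3 read 4.17, 3.91 and 3.80 on Erg +/+ HSC arrays, 4.63, 4.01 and 4.53 on Erg +/- HSC arrays, 4.37, 4.62 and 4.82 on Erg fl/fl MPP arrays and 4.81, 4.69 and 4.93 on Erg -/- MPP arrays. Its values were 0.43 higher with Erg +/- in HSCs and 0.64 higher in control MPPs than in control HSCs (limma adjusted p = 0.789 and 0.11). H2-M1 read 0.66 higher in control MPPs (limma adjusted p = 0.196), at low signal. H2-M3, which presents formylated bacterial peptides, averaged 8.09 ± 0.745 in Erg +/+ HSCs, with 1 array at 8.93, and 7.50 to 7.63 in the other groups. The remaining 7 class I genes, H2-Bl, H2-M5, H2-M10.1, H2-M10.6, H2-M11, H2-Q2 and H2-Q10, had group means between 3.26 and 5.67.

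The 3 MHC class II genes, which show peptides taken up from outside, all had negative differences in MPPs, at -0.45, -0.54 and -0.88, and 0 of 3 were called. Over all genes, 49.4% of differences in MPPs were positive. In HSCs 1 of the 3 was positive and 2 were negative. H2-Eb1, the beta chain of the class II molecule I-E, read 6.95, 7.44 and 6.67 on Erg +/+ HSC arrays and 6.55, 6.32 and 6.19 on Erg +/- HSC arrays, which did not overlap (log2 difference -0.67, SE 0.246, limma adjusted p = 0.74). On MPP arrays it read 7.05, 6.96 and 6.22 with Erg fl/fl and 6.24, 6.07 and 6.31 with Erg -/- (log2 difference -0.54, SE 0.246, limma adjusted p = 0.998). H2-Eb1 was thus the only one of the 55 genes with an unadjusted limma p under 0.05 in both genotype comparisons, negative in both. Of all genes, 3.59% were lower at that threshold in HSCs and 3.58% in MPPs. The share of all genes lower in both was not counted, so the overlap has no baseline. H2-Ob, a brake on class II peptide loading known from B cells, read 8.01, 7.33 and 7.58 on Erg fl/fl MPP arrays and 6.53, 6.89 and 6.86 on Erg -/- MPP arrays, without overlap (log2 difference -0.88, SE 0.411, limma adjusted p = 0.998). Its Erg +/+ HSC arrays, at 7.50, 6.48 and 5.31, covered more than 2 log2 units. Without Erg +/+ HSC replicate 1 the control population difference was 1.74 with a limma adjusted p of 0.0342 (1.21 and 0.131 with all arrays). Between the control populations no other alternative gave a call of H2-Ob. H2-DMa, which exchanges peptides on class II, read 8.58, 8.30 and 8.53 on Erg +/+ HSC arrays and 8.73, 8.78 and 8.66 on Erg +/- HSC arrays. In HSCs it was thus higher with Erg +/- (0.25), opposite to H2-Eb1. It read 9.49, 8.62 and 8.79 on Erg fl/fl MPP arrays and 8.41, 8.25 and 8.89 on Erg -/- MPP arrays. The B cell marker list, given with Irf8, also read lower in Erg -/- than in Erg fl/fl MPPs. It was led by Vpreb1 (-4.75, limma adjusted p = 0.00326) and Igll1 (-1.88, adjusted p = 4.42e-04). Among genes high in control MPPs the selection of the table favoured those lower in Erg -/- MPPs, so a shared fall is no independent observation. The part of the B cell list in the class II values was not tested.

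**Figure D4:**
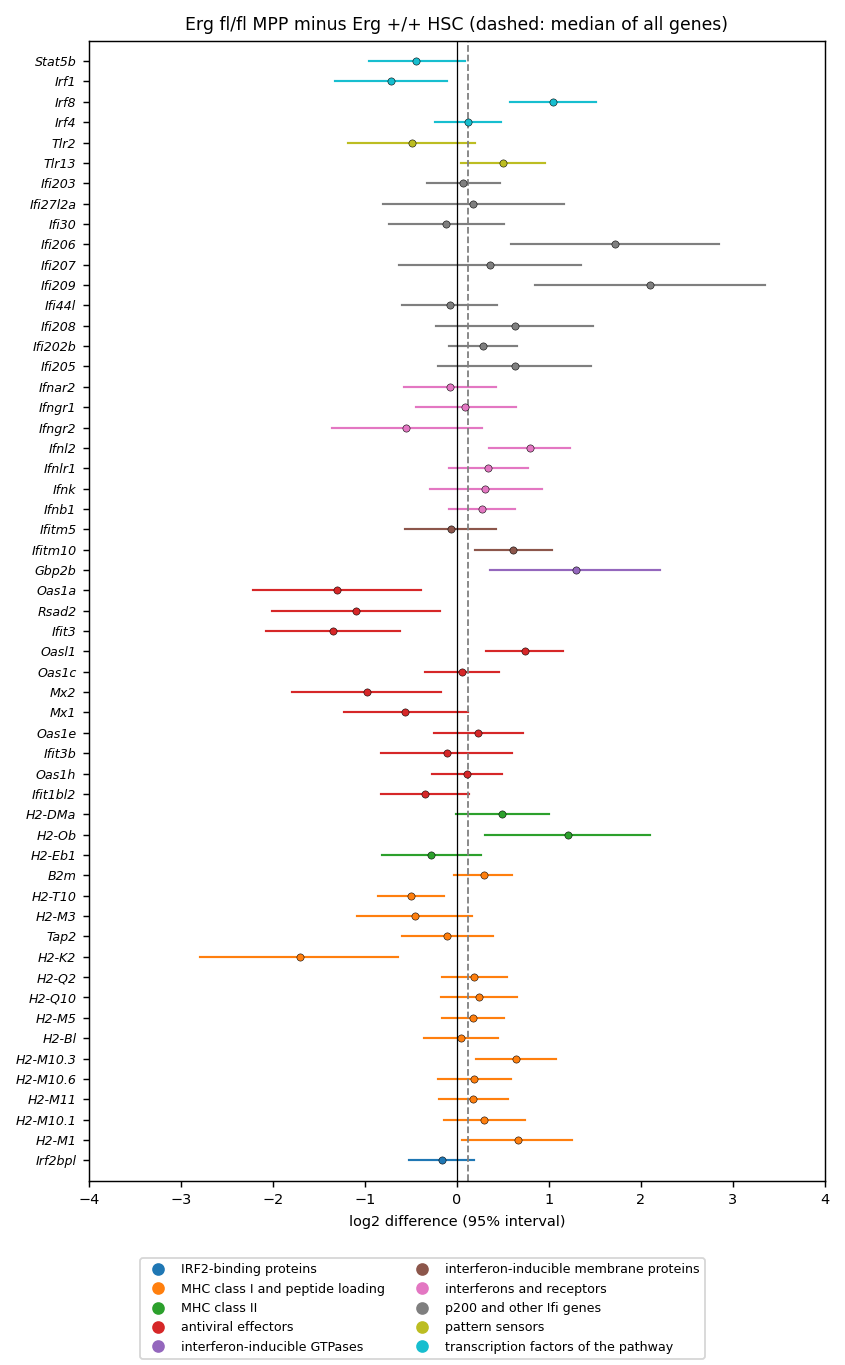
Log2 difference between control populations, Erg fl/fl MPP minus Erg +/+ HSC (horizontal axis), with its 95% interval from limma for each of the 55 genes (rows, coloured by role). Irf8, at 1.05, was the only gene with an adjusted p under 0.05, and the dashed line is the median of all genes, 0.12.

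Other genes of the pathway came from a list of 92, of which 34 had a value. In the genotype comparisons 0 of 34 were called, with 15 positive and 19 negative differences in HSCs and 10 positive and 24 negative in MPPs, at medians of -0.02 and -0.08. Over all genes 53.8% of differences were positive in HSCs and 49.4% in MPPs, and genes brighter than the median had a median of -0.09 in MPPs, close to that of the list. Irak2, a Toll-like receptor kinase, was the only one with an unadjusted p under 0.05 in HSCs (-0.64), and MPPs had 0. Between the control populations 1 of 34 was called, Tor1aip1, a nuclear membrane protein on the list of interferon-induced genes, which was lower in MPPs (-1.38, limma adjusted p = 0.0489, with group means of 7.95, 7.67, 6.57 and 7.0). That call was lost without Erg +/+ HSC replicate 1 or 3 or Erg fl/fl MPP replicate 2 or 3, with limma adjusted p from 0.0778 to 0.152, and in the fit over all probe sets (0.132). It was also lost with only the arrays compared (limma adjusted p = 0.0789) and without the 2 arrays of lowest weight (0.0757). Sting1, the adaptor of cytosolic DNA sensing, had group means of 8.45, 8.39, 7.73 and 7.71 without a call, and Socs1, a feedback inhibitor of interferon signalling, 6.55, 6.65, 6.31 and 6.57. Of 11 genes that carry the signal from receptor to nucleus, 3 were measured.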

How the data were processed

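RNA of 12 sorted samples (20 ng each, amplified) was hybridised to Affymetrix gene arrays. Values as deposited are log2 (range 0.94 to 13.4), summarised by RMA with affy per the submitters' processing notes, which give no version. Of 18719 probe sets, 10657 had 1 gene symbol, 523 several and 7539 none in the annotation used. Each gene took its single-symbol probe set with the highest mean, giving 9984 genes, and no gene described here had a second such probe set. Genes were found by symbol in the RefSeq table of GRCm38.p6, where all 55 matched. The table lacks probe sets with moderate differences between the Erg-reduced populations, as a fit over all of them showed.

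One limma model (limma 3.58.1, R 4.3.3) with 4 group means over 12 arrays (8 residual degrees of freedom, 4.35 from the prior) gave 6 two-sided comparisons, adjusted by Benjamini-Hochberg over 9984 genes at 0.05. It was tested on simulated data. Genes and lists were chosen with earlier results of these data known. The rule named called genes, the 3 smallest p in each direction of a comparison, and 2 per role, some of them given by group means only, while further genes, Rsad2 and Mx2 among them, were named after their values were seen. Alternatives were a replicate block, a filter on dim genes, probe set means, repeated quantile normalisation, median centring, trended robust moderation, weighted arrays, a fit of the compared arrays alone and each array left out. A fit over all probe sets and one without the 2 arrays of lowest weight were chosen after seeing the data. Arrays carry no read depth, and their number limits the precision. Erg, Myc, Slamf1, Cd48, Kit, Ly6a and Cd34 are not analysed here.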

Additional observations from a re-analysis of the deposited data

How the results depend on the processing

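For the 2 genotype comparisons and their difference, 0 of the 55 genes were called under every alternative run. Across all comparisons, 92 of 106 counts of called genes and 100 of 106 median differences stayed close to the reported value. The exceptions all concern MPPs against HSCs. Much of this agreement was fixed in advance. No gene of the 55 had a second probe set, so probe set means could not move a median. Nor could the replicate block, the trended moderation, the fit of the compared arrays or that over all probe sets. Outside the control populations the reported count was 0, in comparisons with few calls among all genes. The 2 tallies are therefore no measure of robustness. Between the control populations, where 1 gene (Irf8) was called, a replicate block gave 3 (Irf8, Ifi209 and Oasl1), while median centring, a fit of only the arrays compared, a fit over all probe sets and leaving out the 2 arrays of lowest weight gave 0 each. Leaving out single arrays gave 0 to 2. In the average of both populations, where 0 were called, leaving out single arrays gave 0 to 4, the 4 without Erg fl/fl MPP replicate 1 being H2-M1, H2-M10.3, Ifi208 and Ifit3.

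The limma adjusted p of Irf8 between control populations (1.05, adjusted p = 0.0364) was 0.0639 with median centring, 0.0864 with only the arrays compared, 0.109 over all probe sets and 0.131 without the 2 arrays of lowest weight. It was between 0.0333 and 0.0454 with the replicate block, the filter on dim genes, probe set means, repeated quantile normalisation, moderated trend and array weights. The call of Tor1aip1, of the list of other pathway genes, was lost with the replicate block (adjusted p = 0.0713). The median difference of the 55 genes in this comparison (0.18) was 0.052 with the filter, which kept 36 of them, 0.005 with repeated quantile normalisation, 0.077 with median centring and 0.072 to 0.242 with single arrays left out. With the filter the median was 0.009 in the averaged comparison and -0.02 between the Erg-reduced populations. Median centring moved the median of all genes between control populations from 0.12 to 0.02. Over all genes, the control population calls (128) fell to 61 with only the arrays compared and 38 over all probe sets.

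The replicate numbers in the titles did not pair the arrays: over 18 same-number pairs the correlation of deviations ran from -0.085 to 0.104, with 1 over 0.1, and 5 of 12 arrays correlated best with their own number. The selection of the value table limits all counts to the genes it holds, and dim genes, with compressed folds, make up 30 of the 55.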

Other observations

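Probe sets that the annotation assigns to several genes were left out of the counts, and 11 of them match the same families. One shared by Gm13274 and Ifnz, of the type I interferon cluster, read 5.90 ± 0.486 (SD, n = 3) in Erg +/+ HSCs, 7.05 ± 0.259 in Erg +/- HSCs, 6.81 ± 0.249 in Erg fl/fl MPPs and 6.97 ± 0.306 in Erg -/- MPPs. Its difference between HSC genotypes was 1.15, with a limma adjusted p of 0.639 over all probe sets. The probe set shared by H2-DMb1 and H2-DMb2, which exchange class II peptides together with H2-DMa, had group means of 6.71, 6.48, 6.79 and 6.62, and the one shared by Ifi47 and Olfr56 had 7.39, 7.52, 7.68 and 7.51. The probe set shared by Tapbp, the bridge of the class I loading complex, and Rps3a1, a ribosomal protein gene, read 11.9 to 12.2 in all groups and cannot be read as either gene.

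Erythroid markers read higher in Erg +/- HSCs: all 6 measured of 9 listed had positive differences, against 53.8% of all genes. The array means were 5.75 to 6.25 in Erg +/+ and 6.74 to 7.09 in Erg +/- HSCs. Of the 6, 0 had a limma adjusted p under 0.05 and 4 were higher at an unadjusted p under 0.05, against 2.73% of all genes. The erythroid list was chosen with earlier results of these data known, so its shares beside those of all genes are no independent comparison. None of the 55 genes belongs to that list.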
